A study of Citrus maxima and Citrus sinensis with 8 samples.

Results

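In leaves of citrus seedlings, 45 genes differed between aluminium and control in opposite directions in 2 species. Of these, 40 were higher with aluminium in Citrus sinensis (sweet orange) and lower with aluminium in Citrus grandis (pummelo, listed as its synonym Citrus maxima). The other 5 were higher with aluminium in C. grandis and lower in C. sinensis. The sets are called sinensis-up and grandis-up genes here. A gene was taken when, on FPKM + 1, the nearest aluminium and control libraries of each species lay at least 1.5 times apart, in opposite directions in the species. Its mean over the 8 libraries also had to be at least 1 and below 500 FPKM. FPKM counts the fragments of a gene relative to gene length and library total. Of 30297 gene IDs, 16221 lay within these limits on the mean. The sinensis-up genes were 0.247% of those, and the grandis-up genes were 0.0308%.

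Leaf RNA was sequenced from 4 groups of 2 libraries each: C. grandis with aluminium for 18 weeks, C. grandis control, C. sinensis with aluminium for 18 weeks and C. sinensis control. Each library was made from leaves of 5 seedlings, pooled as 1 biological replicate. RNA extraction was done a pair of times, and the labels do not say whether each replicate had a pool of its own, so p-values measure the spread between these libraries, which may be technical. The sources used here give no aluminium dose, seedling age or variety. A pool does not show how single seedlings differed, and in bulk leaves fewer cells of a type and less RNA per cell cannot be told apart.

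Aluminium becomes soluble in acid soils, where it damages root tips and disturbs the uptake of water, phosphate and other nutrients, so leaves respond in part to what the root no longer delivers. The species are known to differ in tolerance, and C. sinensis is generally regarded as the more tolerant. No file links IDs to gene names, so neither the functions of the 45 genes nor the markers of leaf cells could be looked up. Reads of both species were listed on 1 set of IDs, and the part that sequence differences play in the species differences was not tested.

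Library totals recovered from the FPKM lay between 16443205 and 19794247 reads. Their scale was set by the whole factor that brought reads on genes nearest to the total. The share on genes, no less than 99.929% in any library, is therefore not an independent measure. Replicates of C. grandis aluminium lay closest, with 10.9% of genes differing between them at an unadjusted chi-square p below 0.05. That share was 58.6% in C. grandis control, 52.1% in C. sinensis aluminium and 32.2% in C. sinensis control.

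The rule chose the genes by their aluminium effects, so counts and effects under it are a description and were not tested. In the same 16221 genes, 619 (3.82%) were higher with aluminium by this ratio in C. sinensis and 944 (5.82%) were lower in C. grandis, and 40 genes met both. In the other direction 1133 (6.98%) were higher in C. grandis and 410 (2.53%) were lower in C. sinensis, and 5 met both. By the same ratio 219 genes were higher with aluminium in both species and 132 were lower in both. The weaker of the 2 ratios of a gene was 1.51 and 1.52 for the sinensis-up genes nearest the limit, and 1.49 for each of the nearest genes outside. It lay from 1.5 to under 1.6 for 14 of the 40, and 20 further genes lay from 1.4 to under 1.5. For the grandis-up genes the nearest inside had 1.502 and 1.53, and the nearest outside 1.42 and 1.41. No gene met the ratios with a mean under 1 FPKM. Cs6g18340, singled out after its values were seen, met those of the grandis-up genes with a mean of 754 FPKM, above the limit.

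**Figure D1:**
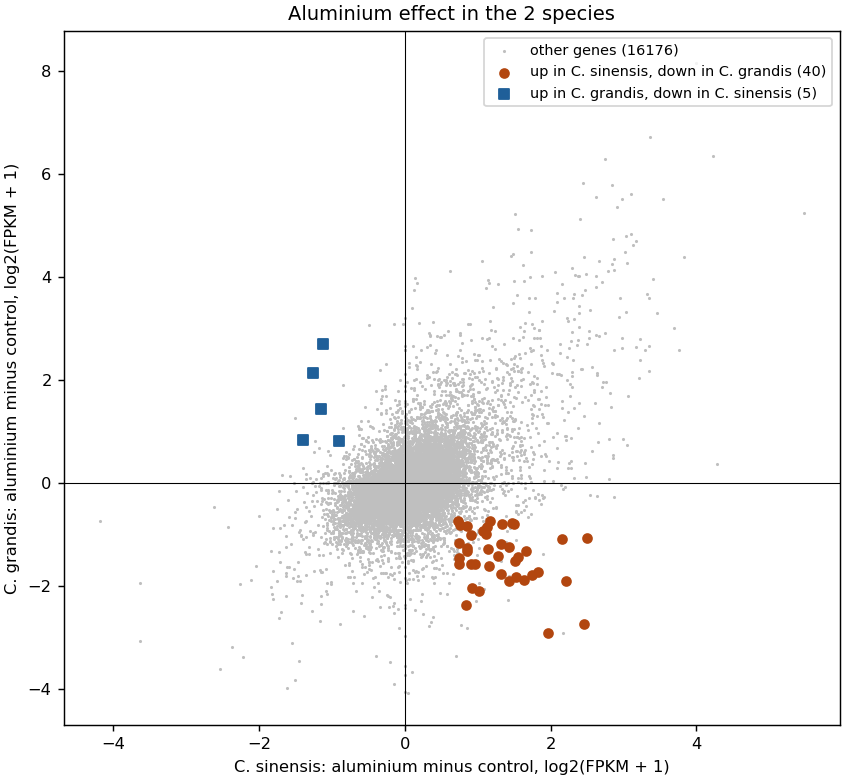
Aluminium minus control on the log2(FPKM + 1) scale, C. sinensis on the horizontal and C. grandis on the vertical axis, 1 point per gene with a mean of 1 to under 500 FPKM. The 40 sinensis-up genes (circles) fill the lower right quadrant and the 5 grandis-up genes (squares) the upper left one, while the grey points farthest from 0 lie mostly in the upper right.

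How many genes were chosen depended on the scaling and on single libraries. With every library centred on its median, 26 of the 40 sinensis-up genes were left and none was added, and the same numbers held after quantile normalization. Centring moved the median log2 effect of all genes in C. sinensis to -0.06, against 0.08 as deposited, which lowers each effect in that species. In C. grandis it moved that median to -0.04, against -0.09 as deposited, which makes each fall smaller there. What each shift adds to the loss of genes was not tested. All 5 grandis-up genes were kept with centring, which added 1, and 3 of the 5 after quantile normalization. Leaving out a library can only add genes. Without C. sinensis aluminium replicate 1 there were 123 sinensis-up and 21 grandis-up genes, and without C. grandis control replicate 1 there were 74 and 9. Without C. sinensis aluminium replicate 2 there were 53 and 14, and without C. grandis control replicate 2 there were 49 and 10. Without C. sinensis control replicate 1 there were 53 and 5, and without replicate 2 of that group 59 and 7. Without C. grandis aluminium replicate 1 there were 48 and 5, without its replicate 2 there were 44 and 6, and with that pair counted as 1 there were 44 and 5.

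Most of the 40 sinensis-up genes had higher levels in C. grandis than in C. sinensis leaves. The median of their group means was 12.1 FPKM in C. grandis aluminium and 27.3 FPKM in C. grandis control leaves. It was 5.18 FPKM in C. sinensis aluminium and 1.33 FPKM in C. sinensis control leaves. Group means ran from 2.10 to 371 FPKM in C. grandis control and from 0.0528 to 92.0 FPKM in C. sinensis control leaves. The median effect of aluminium on log2(FPKM + 1) was -1.38 in C. grandis, with a range of -2.92 to -0.74. In C. sinensis it was 1.22, with a range of 0.74 to 2.50. The change was larger in size in C. grandis for 24 of the 40 genes, near the 54.7% of all 16221 genes. Over all 16221 genes the medians were -0.09 and 0.08.

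**Figure D2:**
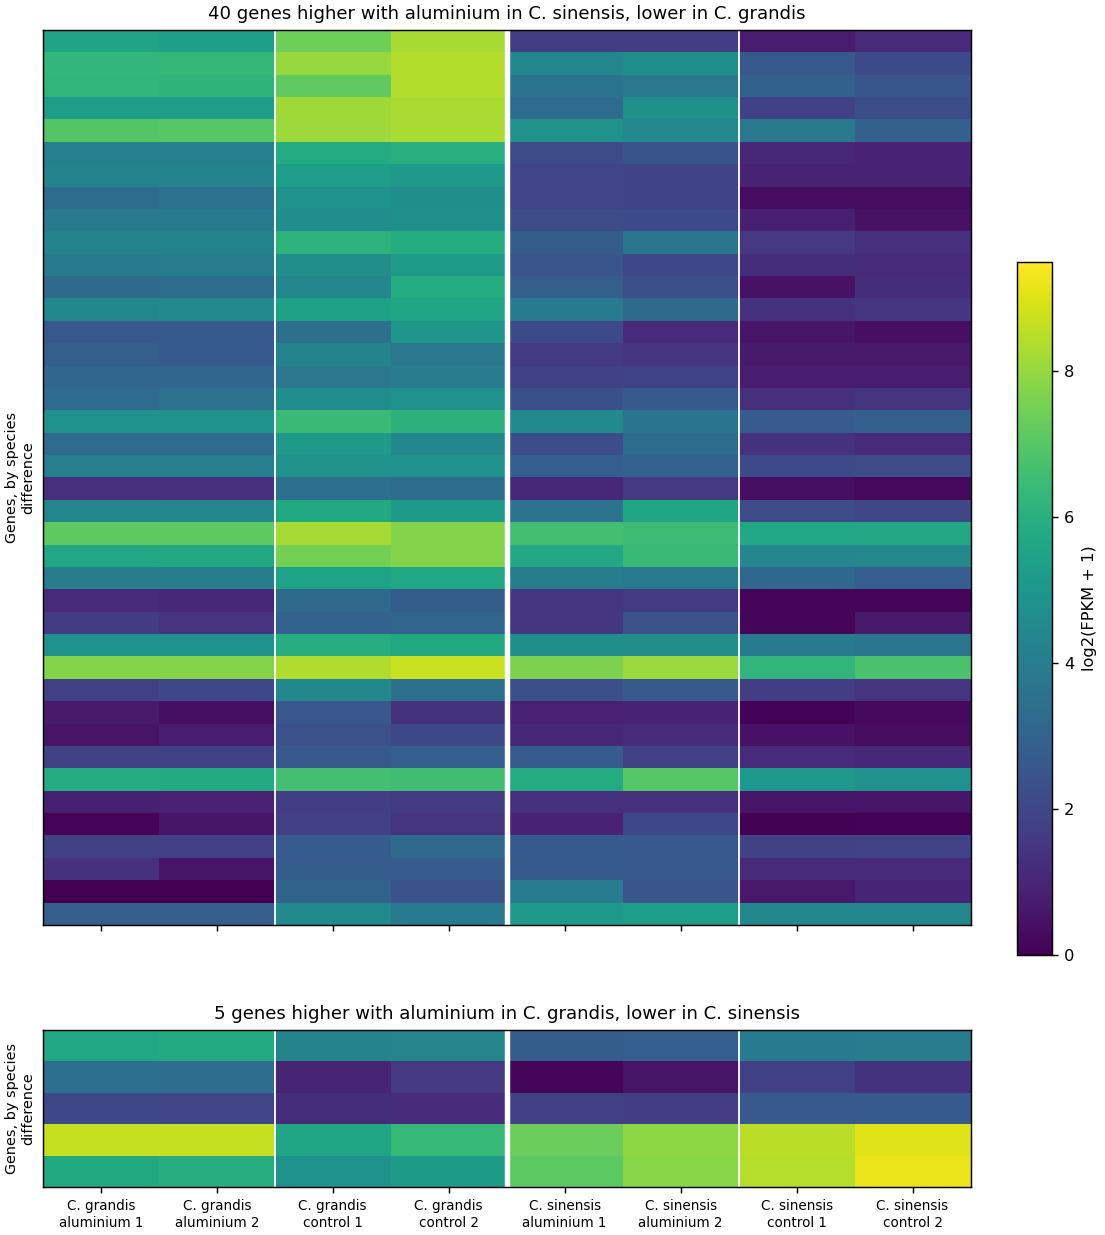
Level of each of the 45 genes in each library as log2(FPKM + 1), with 1 row per gene ordered by the species difference averaged over treatments and 1 column per library, aluminium left of control. In the upper panel the C. grandis control columns are the brightest and the C. sinensis control columns the darkest for most genes.

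The rule used the aluminium effects of both species in these libraries, so calls on them and on their difference follow from the choice of genes and are listed as a description only. With limma on log2(FPKM + 1) and Benjamini-Hochberg adjustment over the 16327 genes tested, 33 of the 40 were called lower with aluminium in C. grandis and 26 higher in C. sinensis. Among all genes tested, 9.70% were called lower in C. grandis and 3.74% higher in C. sinensis. The difference between the effects of the species was called for 32 of the 40, against 1.52% of all genes. Of the 5 grandis-up genes, 4 were called higher in C. grandis, against 6.41% of all genes, 3 lower in C. sinensis, against 2.60%, and 4 in the difference of effects, against 0.796%.

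Cs5g23090 had the widest separation, with a weaker ratio of 3.27. It had 78.2 and 79.3 FPKM in C. grandis aluminium, against 262 and 338 FPKM in C. grandis control leaves. It had 20.4 and 25.5 FPKM in C. sinensis aluminium, against 5.06 and 3.35 FPKM in C. sinensis control leaves. The libraries of no group overlapped those of another, and the species lay nearer to each other with aluminium. In reads per library total the C. sinensis level with aluminium was 5.496 times that in control, with a 95% counting interval of 4.79 to 6.33. The C. grandis control level was 3.842 times that with aluminium, with an interval of 3.71 to 3.98. Such intervals reflect counting alone, since the reads of the 2 libraries of a group are summed and the spread between them is left out. PCR copies are not separate molecules, so the intervals can be too narrow for that reason too.

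Cs5g22210 came second, with a weaker ratio of 2.85. It had no read in either C. grandis aluminium library, against 7.22 and 4.45 FPKM (395 reads in all) in C. grandis control leaves. Setting the aluminium group at 3 reads in total, this was at least 127-fold lower with aluminium. In C. sinensis it had 15.5 and 4.67 FPKM with aluminium, against 0.569 and 0.988 FPKM in control leaves. The aluminium libraries of C. sinensis differed more than 3-fold between themselves, yet both lay above both controls. It was the only one of the 45 at 0 in any library, and here the species exchanged places with aluminium.

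The order of the 4 groups was shared by most of the 40 genes. In 23 the group means ran, from high to low, C. grandis control, C. grandis aluminium, C. sinensis aluminium and C. sinensis control, and in 22 of these no library of a group overlapped the next group. In 13 more the inner pair was exchanged, with C. sinensis aluminium above C. grandis aluminium, and 5 of these had no overlap. In 36 of the 40, C. grandis control leaves were therefore highest and C. sinensis control leaves lowest, with both aluminium groups between them. The rule itself keeps aluminium and control libraries of a species apart, so in the first order only the step between the aluminium groups was free. That step, with both C. grandis aluminium libraries above both of C. sinensis, held in 22 of the 40, against 39.6% of all genes. The orders are a description, and their shares over all genes were not counted. The remaining 4 genes were named after their values were seen. Novel00278 and Cs9g18280 had C. grandis aluminium as the lowest group, below C. sinensis control. Cs5g22210 and orange1.1t04923 had their highest group mean in C. sinensis aluminium leaves. For Cs5g22210 those libraries, at 15.5 and 4.67 FPKM, overlapped the C. grandis control libraries at 7.22 and 4.45 FPKM.

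Novel00278 shows the exchange most evenly. It had 1.53 and 0.464 FPKM in C. grandis aluminium, against 5.91 and 5.71 FPKM in C. grandis control leaves. It had 5.48 and 5.33 FPKM in C. sinensis aluminium, against 1.23 and 1.24 FPKM in C. sinensis control leaves. The level of each species with aluminium was thus close to the control level of the other. These FPKM rest on 31 and 185 reads in C. grandis and on 177 and 44 reads in C. sinensis, aluminium before control.

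The species lay far apart in control leaves and nearer with aluminium. In control leaves both C. grandis libraries were above both C. sinensis libraries in 39 of the 40 genes, against 47.8% of all 16221 genes, and the reverse held for none, against 29.2%. With aluminium that held for 22 of the 40 against 39.6% of all genes, and the reverse order held for 10 against 37.1%. By limma, 39 were called higher in C. grandis control than in C. sinensis control and none lower, against 29.9% and 18.9% of genes tested. With aluminium 16 were called higher and 6 lower, against 19% and 20.3%. These contrasts share libraries with the rule and are given as a description. The median difference, C. grandis minus C. sinensis on log2(FPKM + 1), was 0.54 with aluminium and 3.16 in control leaves. The size of the difference was smaller with aluminium than in control for 37 of the 40, against 57.4% of all genes. For a gene that is higher in C. grandis, a higher level in C. sinensis with a lower one in C. grandis narrows the difference by arithmetic, so the narrowing restates the rule. The control difference is the average difference plus a share of the opposite effects that the rule selected, so the rule also raises it, and nothing is read from its counts beside those of all genes.

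**Figure D3:**
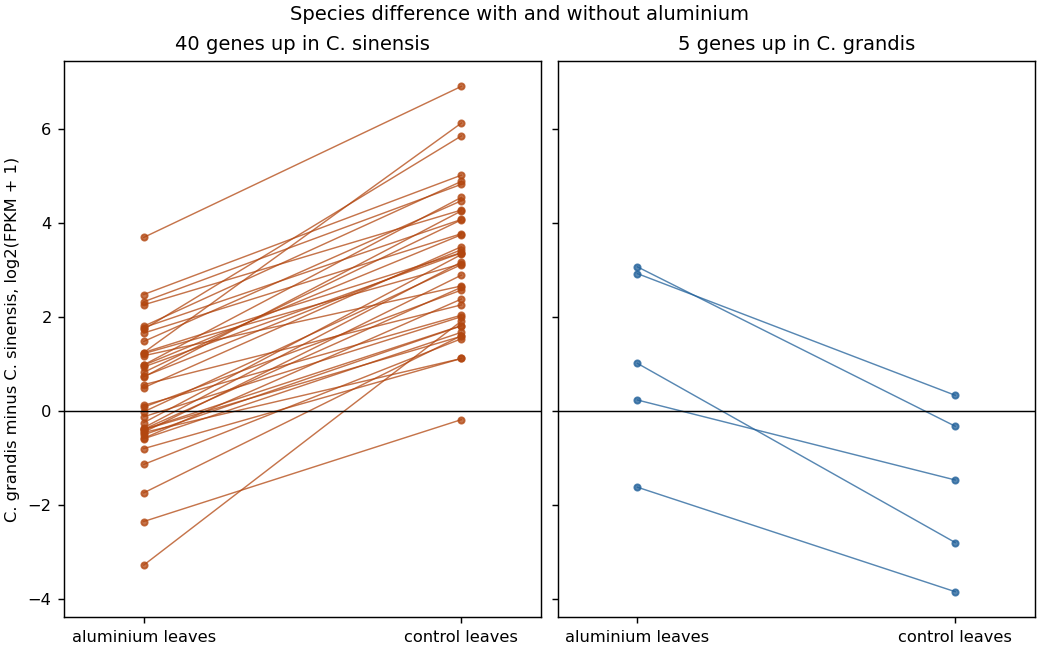
C. grandis minus C. sinensis on log2(FPKM + 1) for each gene in aluminium leaves (left) and control leaves (right), joined by a line, for the 40 sinensis-up genes and the 5 grandis-up genes. In control leaves 39 of the 40 lie above 0, and with aluminium 23 do.

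The species difference averaged over aluminium and control leaves is a contrast orthogonal to the effects used to choose the genes, and was tested. It comes from the same libraries, and would be independent of the rule only if the groups had equal spread, which they did not, so the choice of genes can also shift the average to some extent. With limma, 34 of the 40 sinensis-up genes were called higher in C. grandis on this average and 1 lower (adjusted p below 0.05 over 16327 genes). Of the 34, 28 were at least 2-fold higher on log2(FPKM + 1). Among all genes tested, 34.1% were called higher and 24.9% lower in C. grandis, and 1504 of the 16327 were called at least 2-fold higher. The median difference was 1.74 over the 40 and 0.11 over all genes tested, and it was above 0 in 37 of the 40 against 57.2% of all genes. In 22 of the 40 all C. grandis libraries lay above all C. sinensis libraries, against 23.3% of all genes, and the reverse held for none against 18.2%. A call on the average does not mean a higher level in both treatments. With aluminium the C. grandis mean was above that of C. sinensis in 23 of the 40, against 50.9% of all genes. Where it was not, a positive average comes from the control leaves, whose difference the rule raises. With median centring 31 of the 40 were called higher in C. grandis, against 27.8% of all genes tested. Without any single library the median difference of the 40 lay between 1.58 and 1.93. With the C. grandis aluminium pair counted as 1 library, that median was 1.74.

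**Figure D4:**
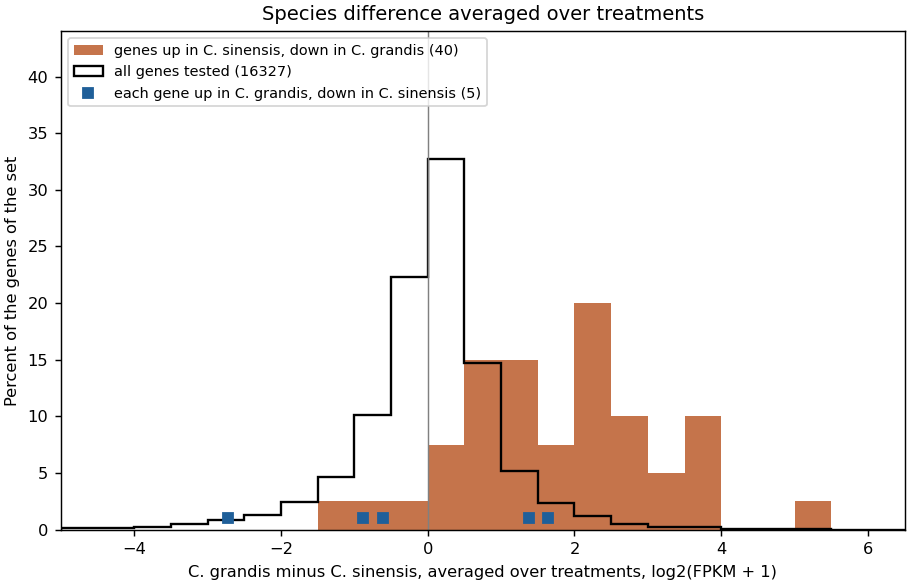
C. grandis minus C. sinensis averaged over treatments on log2(FPKM + 1), as the percent of genes in bins of width 0.5, for the 40 sinensis-up genes (filled) and all 16327 genes tested (line); squares mark each of the 5 grandis-up genes at an arbitrary height. The sinensis-up genes have a median of 1.74, and all genes tested a median of 0.11.

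Genes that met only 1 side of the rule were set beside the 40. Of 579 other genes higher with aluminium in C. sinensis, limma called 54.7% higher and 14.7% lower in C. grandis on the average over treatments, with a median difference of 0.67. Of 904 other genes lower with aluminium in C. grandis, it called 39.0% higher and 29.1% lower, with a median of 0.16. Over all genes tested these values were 34.1%, 24.9% and 0.11, so both shares were slightly larger in the 904 genes. Whether the 40 differ from these sets was not tested. The median gap between replicates of the 40 on log2(FPKM + 1) was 0.05 in C. grandis aluminium, 0.26 in C. grandis control, 0.31 in C. sinensis aluminium and 0.16 in C. sinensis control. Over all 16221 genes these gaps were 0.07, 0.24, 0.21 and 0.12, so in 3 of the 4 groups those of the 40 were not smaller.

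The largest average difference belonged to orange1.1t03024. It had 45.7 and 40.6 FPKM in C. grandis aluminium, against 170 and 308 FPKM in C. grandis control leaves. It had 2.39 and 2.39 FPKM in C. sinensis aluminium, against 0.644 and 1.19 FPKM in C. sinensis control leaves. C. sinensis levels stayed low in both treatments: the average difference was 5.31 (SE 0.20, limma adjusted p = 4.42e-06), with all 4 C. grandis libraries above all 4 of C. sinensis. In reads per library total C. grandis stood 18.1-fold above C. sinensis with aluminium (95% counting interval 15.1 to 21.9) and 266-fold above it in control leaves (202 to 357). Its C. sinensis effect rests on 122 reads with aluminium and 51 in control.

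Cs5g23090, described above, followed with an average difference of 3.80 (SE 0.14, limma adjusted p = 4.68e-06). Cs5g27570 was next to orange1.1t03024 in control leaves, where the species differed by 6.14 on log2(FPKM + 1), and differed by 1.251 with aluminium. It had 38.2 FPKM in both C. grandis aluminium libraries, against 282 and 311 FPKM in C. grandis control leaves. In C. sinensis it had 8.90 and 26.3 FPKM with aluminium, against 2.65 and 3.87 FPKM in control leaves. On log2(FPKM + 1), which understates changes of low genes, its C. grandis effect of -2.92 was the largest in size of the 40. In reads per library total its C. grandis control level was 7.79 times that with aluminium, against at least 127 times for Cs5g22210. The average difference of Cs5g27570 was 3.69 (SE 0.30, limma adjusted p = 0.00011).

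The gene called lower in C. grandis was orange1.1t04923. It had 6.32 and 6.38 FPKM in C. grandis aluminium, against 21.9 and 13.8 FPKM in C. grandis control leaves. It had 34.5 and 38.4 FPKM in C. sinensis aluminium, against 19.98 and 19.6 FPKM in C. sinensis control leaves. The control libraries of the species overlapped for this gene, and the difference arose with aluminium, where it was -2.35. The average difference was -1.26 (SE 0.14, limma adjusted p = 0.000439).

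The other 5 genes did not pass the test of the average difference. These were Cs5g22210 at -0.68 (SE 0.34, limma adjusted p = 0.127), Novel00278 at -0.06 (SE 0.18, limma adjusted p = 0.776) and Cs9g18280 at 0.17 (SE 0.14, limma adjusted p = 0.327). Cs7g29570 stood at 0.55 (SE 0.23, limma adjusted p = 0.0795) and Cs9g12030 at 0.21 (SE 0.26, limma adjusted p = 0.513). In each of them the mean of C. sinensis was higher with aluminium and that of C. grandis higher in control, so the 2 treatments differed in sign. For Cs7g29570 the aluminium libraries of the species overlapped, and its difference was -0.58 with aluminium and 1.68 in control. Leaving out 1 library brought 4 of them past the threshold. Without C. sinensis aluminium replicate 2, limma gave -1.06 for Cs5g22210 (adjusted p = 0.00425), 0.83 for Cs7g29570 (adjusted p = 0.000627) and 0.49 for Cs9g12030 (adjusted p = 0.0388). Without replicate 1 of that group limma gave 0.27 for Cs7g29570 (adjusted p = 0.0371), and without C. grandis control replicate 1 it gave 0.30 for Cs9g18280 (adjusted p = 0.0327). Cs7g29570 was the most abundant, with 57.0 and 55.0 FPKM in C. grandis aluminium against 101 and 94.5 FPKM in C. grandis control leaves. In C. sinensis it had 56.9 and 125 FPKM with aluminium against 32.4 and 27.3 FPKM in control leaves. Cs9g12030 was the least abundant of the 45, with 10 reads in C. grandis aluminium against 70 in control, and 74 reads in C. sinensis aluminium against 2 in control. Its C. sinensis ratio of 40.3 therefore has a 95% counting interval of 10.8 to 339.

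In Cs9g18280 the species exchanged places with aluminium. It had 2.67 and 2.50 FPKM in C. grandis aluminium, against 5.73 and 8.78 FPKM in C. grandis control leaves. It had 5.38 and 5.06 FPKM in C. sinensis aluminium, against 2.56 and 2.89 FPKM in C. sinensis control leaves. The C. grandis aluminium and C. sinensis control libraries overlapped, while both other groups lay above them.

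The 5 grandis-up genes shared no common order of the groups, and all are named here since they are few. Cs9g17670 had the widest separation, with a weaker ratio of 2.15. It had 51.1 and 54.4 FPKM in C. grandis aluminium, against 18.4 and 19.2 FPKM in C. grandis control leaves. It had 6.01 and 6.07 FPKM in C. sinensis aluminium, against 14.2 and 15.1 FPKM in C. sinensis control leaves. The species lay close in control and far apart with aluminium, and replicates of all 4 groups were tight. In reads per library total C. grandis stood 8.72-fold above C. sinensis with aluminium (95% counting interval 7.66 to 9.97), and 1.29-fold above it in control leaves (1.16 to 1.43).

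Cs5g33710 also lay farther apart with aluminium, at low levels. It had 9.98 and 9.55 FPKM in C. grandis aluminium, against 0.982 and 2.01 FPKM in C. grandis control leaves. It had 0.127 and 0.446 FPKM in C. sinensis aluminium, against 2.50 and 1.64 FPKM in C. sinensis control leaves. The control libraries of the species overlapped. Only 10 reads were left in C. sinensis aluminium, against 76 in C. sinensis control, a ratio with a 95% counting interval of 3.59 to 15.1.

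Cs1g23600 was the most abundant of the 5 and crossed over. It had 403 and 404 FPKM in C. grandis aluminium, against 47.2 and 80.7 FPKM in C. grandis control leaves. It had 166 and 237 FPKM in C. sinensis aluminium, against 363 and 518 FPKM in C. sinensis control leaves. With aluminium the C. grandis libraries reached the range of the C. sinensis controls, while C. sinensis stayed above the C. grandis controls. Its C. sinensis libraries were near the limit of the rule, with a ratio of 1.53 between the nearest, against 4.95 in C. grandis.

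Cs4g09550 had higher levels in C. sinensis in both treatments and lay nearer to C. grandis with aluminium. It had 53.3 and 58.9 FPKM in C. grandis aluminium, against 27.3 and 35.2 FPKM in C. grandis control leaves. It had 136 and 222 FPKM in C. sinensis aluminium, against 348 and 601 FPKM in C. sinensis control leaves. No C. grandis library reached any C. sinensis library. This was the mirror image of the pattern shared by most sinensis-up genes, and its ratio of 1.502 lay at the limit of the rule.

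Novel00102 completed the set at low levels. It had 3.16 and 2.91 FPKM in C. grandis aluminium, against 1.36 and 1.26 FPKM in C. grandis control leaves. It had 2.50 and 2.33 FPKM in C. sinensis aluminium, against 5.23 and 5.51 FPKM in C. sinensis control leaves. The aluminium groups lay next to each other between the controls. It rests on 83 reads in C. grandis aluminium against 37 in control, and on 70 reads in C. sinensis aluminium against 170 in control.

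By limma, 2 of the 5 were higher in C. grandis on the average over treatments and 3 were lower, against 34.1% and 24.9% of all genes tested. The average difference was 1.64 for Cs9g17670 (SE 0.07, limma adjusted p = 7.1e-06) and 1.38 for Cs5g33710 (SE 0.18, limma adjusted p = 0.000847). It was -2.73 for Cs4g09550 (SE 0.23, limma adjusted p = 0.000116), -0.89 for Cs1g23600 (SE 0.21, limma adjusted p = 0.0112) and -0.61 for Novel00102 (SE 0.09, limma adjusted p = 0.00149). The sign changed between treatments in Cs5g33710 (3.08 with aluminium, -0.32 in control), Cs1g23600 (1.02 and -2.79) and Novel00102 (0.24 and -1.46). It was the same in both for Cs9g17670 and Cs4g09550. With 5 genes the split between the directions was not tested.

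**Figure D5:**
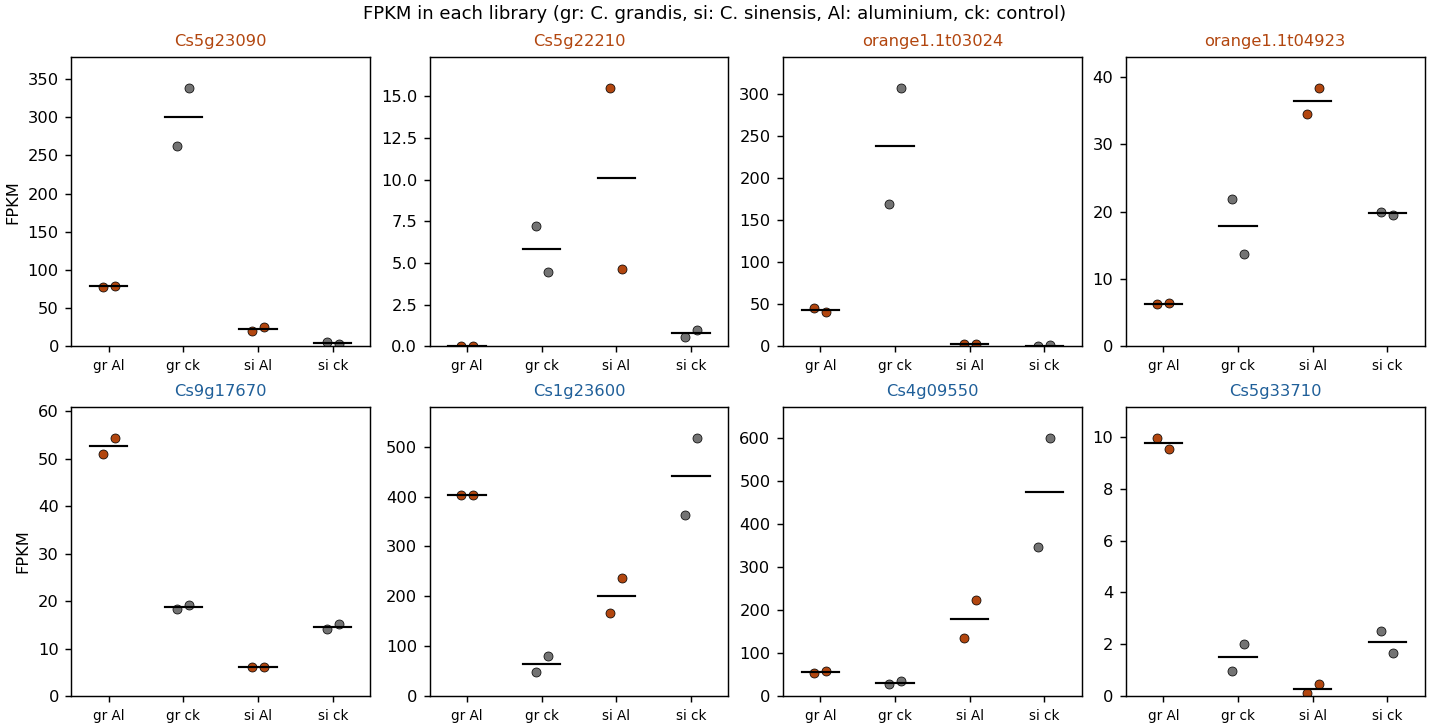
FPKM in each library (points) with the mean of the 2 libraries (bar) for 4 sinensis-up genes (upper row) and 4 grandis-up genes (lower row), aluminium left of control in each species, on axes that start at 0. By their means, Cs5g23090 and orange1.1t03024 are highest in C. grandis control leaves, Cs5g22210 and orange1.1t04923 in C. sinensis aluminium leaves. For Cs5g22210 the C. sinensis aluminium and C. grandis control libraries overlap.

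Several features besides the aluminium effects were set beside those of all 16221 genes. Gene lengths recovered from the FPKM had a median of 1562 bp in the sinensis-up genes and 1725 bp over all genes, and of 929 bp in the 5 grandis-up genes. The mean over the 8 libraries, which the rule limits for both sets alike, had a median of 13.0 FPKM in the 40 and 12.1 FPKM over all genes. Fewer than 30 reads in at least 1 library were found for 18 of the 40, against 18.2% of all genes, and in each of the 18 a C. sinensis control library was among those low ones. C. sinensis aluminium replicate 1 was above replicate 2 in 18 of the 40, against 44.8% of all genes and 62.5% of the 579 other genes higher with aluminium in C. sinensis. The count in the 40 was near the share of all genes, and the rule used these libraries, so nothing is read from it.

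The 40 genes were spread over all 9 numbered series of IDs, from 1 gene in the Cs8g series to 6 in the Cs9g series. Of all genes, the Cs8g series held 6.8% and the Cs9g series 6.25%. The orange1.1t series held 5 of the 40, against 14.3% of all genes. These counts were not tested. Among the 40 were 2 pairs of close ID numbers, noticed after the values were seen. How often such pairs occur among all genes was not counted. Cs4g09130 and Cs4g09140 follow each other and have lengths of 5307 and 5060 bp. Cs4g09130 had 16.0 and 16.1 FPKM in C. grandis aluminium against 28.3 and 27.2 FPKM in C. grandis control leaves, and 6.09 and 6.98 FPKM in C. sinensis aluminium against 3.36 and 3.68 FPKM in C. sinensis control leaves. Cs4g09140 had 14.9 and 15.4 FPKM in C. grandis aluminium against 44.4 and 50.2 FPKM in C. grandis control leaves. In C. sinensis Cs4g09140 had 14.9 and 13.5 FPKM with aluminium against 7.997 and 6.22 FPKM in control leaves. Both are sinensis-up genes, so the rule fixes that they differ in the same direction in each species. The C. grandis effect was larger in Cs4g09140. The next ID, Cs4g09150, is no member: it had 0.415 and 0.189 FPKM in C. grandis aluminium against 3.87 and 2.60 FPKM in C. grandis control leaves, and less than 0.41 FPKM in each C. sinensis library.

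The other pair was Cs2g19300 and Cs2g19320, which are separated by an ID at 0 in all libraries and have lengths of 1908 and 1770 bp. Cs2g19300 had 27.7 and 27.4 FPKM in C. grandis aluminium against 82.9 and 68.4 FPKM in C. grandis control leaves, and 21.8 and 11.8 FPKM in C. sinensis aluminium against 5.61 and 6.47 FPKM in C. sinensis control leaves. Cs2g19320 had 13.7 and 15.3 FPKM in C. grandis aluminium against 25.01 and 36.1 FPKM in C. grandis control leaves. In C. sinensis Cs2g19320 had 4.64 and 3.22 FPKM with aluminium against 1.34 and 1.178 FPKM in control leaves. All 4 genes were higher in C. grandis on the average over treatments, by 1.34 to 2.72 on log2(FPKM + 1), with limma adjusted p between 6.97e-06 and 0.000152. Whether neighbours are near-identical copies that share reads could not be looked up without sequences, and their values are uncertain to that extent.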

How the data were processed

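Leaf mRNA of 2 citrus species was sequenced with and without aluminium, 2 libraries per group. The authors deposited FPKM per gene, 1 table per group, per the file headers. Tools named in the submitters' processing notes, with no role, are edgeR 1.18.0, HTSeq, TopHat2 and Bowtie. The sources used here give neither genome build nor annotation. The members and lists were chosen with earlier results of these data known.

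Whole reads, lengths and totals were recovered from the ratios between FPKM values. All values (100%) lay within 0.01 of a whole read, a weak check since whole numbers were searched for. The recovery, the rule and the test were tested on simulated data. The test was limma (version 3.58.1, R version 4.3.3) on the log2 of deposited FPKM + 1. The 16327 genes with a mean of at least 1 FPKM entered a fit of 4 group means with a trend on expression, with two-sided p-values adjusted by Benjamini-Hochberg across these genes. The log2(FPKM + 1) scale understates changes of low genes. P-values measure the spread between libraries, which may be technical. Without gene names, the genes named were the 2 with the largest weaker ratio in each direction and the 2 highest and lowest in each species comparison. Genes in counts of 5 or fewer and neighbouring IDs were added after their values were seen. The lists of pathway and cell type genes could not be matched to IDs and were not used.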

Additional observations from a re-analysis of the deposited data

Results flagged for a closer look

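Every named gene stood out because all libraries of one species moved one way with aluminium and all libraries of the other moved the opposite way. The genes were chosen for this, so the difference is a description, and no test of it independent of the choice was possible. Subtracting the C. grandis effect from the C. sinensis effect on log2(FPKM + 1) gave 5.20 for Cs5g22210, 4.89 for Cs5g27570, 4.12 for Cs5g23090, 3.35 for Novel00278 and 3.22 for orange1.1t03024. It was 2.70 for Cs2g19300, 2.68 for Cs9g12030, 2.49 for Cs4g09140, 2.27 for Cs7g29570, 2.17 for orange1.1t04923 and 2.11 for Cs2g19320. It was 1.92 for Cs9g18280 and 1.49 for Cs4g09130. In the grandis-up genes it was -3.81 for Cs1g23600, -3.39 for Cs5g33710, -2.59 for Cs9g17670, -2.22 for Cs4g09550 and -1.70 for Novel00102.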

How the results depend on the processing

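The number of genes that met the rule moved with its settings. With 0.1 added to FPKM there were 81 sinensis-up and 8 grandis-up genes, and with 2 added 26 and 2. With a lower ratio there were 124 and 13, and with a ratio of 2 there were 10 and 1. Group means in place of the nearest libraries gave 180 and 19. A minimum mean of 5 FPKM left 29 and 3, median centring gave 26 and 6, and quantile normalization 26 and 3. Without any single library the counts ran between 44 and 123 and between 5 and 21. The causes were not tested, except that fewer libraries or a lower ratio can only add genes. The other settings stayed within 1.5 times. On the species difference averaged over treatments, 34 of the 40 sinensis-up genes were called higher in C. grandis and 1 lower. Of the 5 grandis-up genes 2 were called higher and 3 lower, against 34.1% and 24.9% of all genes tested. In the settings that kept all 8 libraries apart, 27 to 34 sinensis-up genes were called higher, against 27.3% to 36.7% of all genes tested. In those settings 1 or 2 were called lower, against 21.8% to 28.5%. The lowest count was with a minimum mean of 5 FPKM, which keeps 29 of the 40. Of the values of named genes under an alternative, 311 stayed on their side of the threshold, and 7 of genes that had missed the threshold passed it. By limma, Cs5g22210 stood at -1.84 with 0.1 added (adjusted p = 0.00874) and at -3.12 with limma-voom on recovered reads (adjusted p = 0.0388), with adjusted p between 0.00425 and 0.292 over its alternatives. The others passed on leaving out 1 library, and their values stand beside the results. Limma-voom called 33 of the 40 sinensis-up genes higher and 2 lower, against 33.9% and 24.8% of all genes tested. With the replicate block 33 of the 40 were called higher and 1 lower, against 32.7% and 24.3%. Replicate numbers did not pair the libraries: deviations of same-numbered libraries correlated with r from -0.012 to 0.046. Genes with few reads, most often in C. sinensis control, have the least certain ratios.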
